A study of Homo sapiens with 12 samples.

Results

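The genes described here were E- and N-cadherin and the markers and regulators of the epithelial-mesenchymal transition (EMT), namely CDH1, CDH2, VIM, FN1, SNAI1, SNAI2, ZEB1, ZEB2, EPCAM and CTNNB1. They were chosen by name, for their known roles, with earlier results of these data known. All 10 were found among the 63541 gene IDs of the table and among the 21999 genes tested. Poly(A)+ RNA was measured in HEK293T cells, a line from human embryonic kidney that carries the SV40 large T antigen, and the labels call its cells epithelial. The 4 groups of 3 libraries were cells given a scramble siRNA and cells given si-snaR-A#1, si-snaR-A#2 or si-snaR-A#3, which are small interfering RNAs against snaR-A, a small structured noncoding RNA made by RNA polymerase III. They are called siRNA #1, #2 and #3 from here on. Per the paper, all 3 target the part of snaR-A near its 3′ end. Their listed sequences overlap, so they are not independent target sites. Every group, the scramble control included, received siRNA at 12.5 nM with a lipid reagent and was collected 48 h later. The study asked how snaR-A bears on mRNA splicing, and it also examined cell migration and EMT markers. It reported more migration of HEK293T cells after snaR-A depletion. In primary tumours it found no association between EMT markers and snaR-A gene activity. The study also described relatively few transcripts as changed in abundance after snaR-A depletion. Its supplement gives that threshold as an adjusted p together with a minimum fold change. Calls in the text below require no minimum fold change, so their numbers are not comparable with the study's. The comparisons below ask whether the mRNA levels of the EMT genes differed between cells with each siRNA and cells with scramble. All libraries came from 1 cell line, the level of snaR-A itself was not analysed here, and the 3 comparisons with scramble share the same control libraries.

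Cadherins are transmembrane proteins that hold neighbouring cells together through calcium-dependent contacts, and their cytoplasmic tails bind beta-catenin, which links them to the actin cytoskeleton and also serves in the nucleus as a coactivator of Wnt signalling. During EMT, cells lose E-cadherin (CDH1) and gain N-cadherin (CDH2), vimentin and fibronectin, and the exchange of one cadherin for the other is called the cadherin switch. The transition is driven by zinc-finger and helix-loop-helix repressors, among them SNAIL (SNAI1), SLUG (SNAI2), ZEB1 and ZEB2, which bind E-box words in promoters of epithelial genes such as CDH1. HEK293T cells are known to carry mesenchymal and neuronal features beside epithelial ones.

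Library totals lay between 120.4 and 180.1 M (mega) estimated counts. Levels are given as CPM, the counts of a gene per M counts of its library, on library sizes scaled by the trimmed mean of M-values (TMM), with factors between 0.956 and 1.09. Mitochondrial genes took between 4.78% and 6.05% of counts in the scramble libraries and between 3.66% and 4.53% in those of siRNA #1, and the part of this in the results was not tested. Of the 21999 genes, 46.7% differed between siRNA #1 and siRNA #2 and 48.6% between siRNA #1 and siRNA #3, against 15.6% between siRNA #2 and siRNA #3, so the libraries of siRNA #1 stood apart. The epithelial label was met in part. KRT18 and KRT8, keratins of simple epithelia, were at 29.9 ± 0.905 and 7.66 ± 0.532 CPM in scramble (SD, n = 3), and the desmosomal genes DSG2 and DSP were at 441 ± 13.9 and 104 ± 8.70 CPM. The keratin genes KRT7 and KRT19 had at most 0 and 3 counts in any library. Among kidney markers, UMOD and AQP2 had 0 counts in every library, while PAX2, GATA3 and LRP2 were at 5.49, 26.4 and 28.4 CPM in scramble. In bulk RNA, fewer cells of a type and less RNA per cell cannot be told apart.

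Divided by the length of the reference transcript in kilobases, the genes spanned a wide range of levels in scramble. VIM, an intermediate filament gene, was highest at 252 ± 15.7 CPM per kb (SD, n = 3), followed by CTNNB1 at 115 ± 4.72, CDH2 at 35.6 ± 1.33 and SNAI2 at 22.9 ± 0.300 CPM per kb. ZEB1 was at 12.6 ± 0.0808, FN1 at 10.8 ± 0.620, ZEB2 at 4.93 ± 0.173 and CDH1 at 2.20 ± 0.0707 CPM per kb. EPCAM and SNAI1 were lowest, at 1.199 ± 0.0612 and 0.994 ± 0.0366 CPM per kb. No neighbours in this order overlapped in scramble. N-cadherin was therefore present in these control cells at a level per length far above that of E-cadherin, and SNAI2 was far above SNAI1. With siRNA #1 the order of CDH2 and SNAI2 was inverted, at 23.4 ± 1.84 and 36.8 ± 1.63 CPM per kb, while with siRNA #2 CDH2 was at 36.9 ± 0.362 and SNAI2 at 34.9 ± 0.806 CPM per kb. In 3 cases neighbours overlapped under an siRNA. With siRNA #1, SNAI1 lay between 1.02 and 1.30 CPM per kb and overlapped both CDH1, between 1.21 and 1.35, and EPCAM, between 1.10 and 1.14. With siRNA #3, FN1 lay between 10.04 and 13.1 and overlapped ZEB1, between 12.8 and 13.7 CPM per kb.

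**Figure D1:**
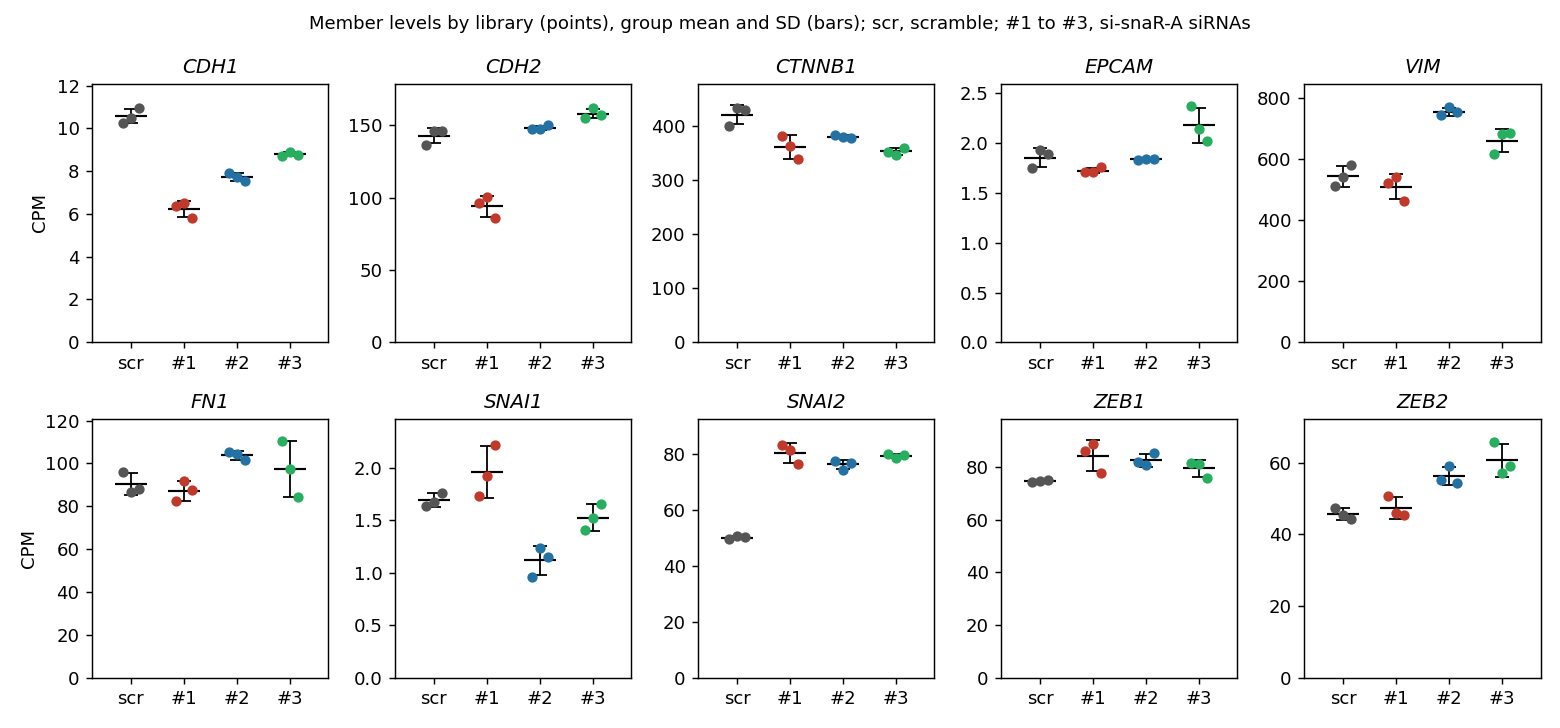
Level in CPM (vertical axes, each from 0) of the 10 genes in the 12 libraries. Points are libraries, bars the mean and SD of 3, and scr stands for scramble. SNAI2 lay between 49.3 and 50.7 CPM in scramble and between 74.1 and 83.0 CPM with the siRNAs, and CDH1 was highest in scramble.

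Against scramble, 5 of the 10 genes differed with siRNA #1 at an adjusted p under 0.05 (edgeR's quasi-likelihood test, Benjamini-Hochberg over 21999 genes), where 45.2% of all genes tested did. Of these, 2 were higher and 3 lower, beside 21.9% and 23.3% of all genes. With siRNA #2, 7 of the 10 differed against a background of 25.8%, 4 of them higher (13.7% of all genes) and 3 lower (12.1%). With siRNA #3 it was 6 of the 10 against 29.4%, 4 higher (16.5%) and 2 lower (13.0%). The 3 libraries of the siRNA and of scramble did not overlap for 5, 9 and 8 of the genes, where 52.9%, 43.3% and 43.4% of all genes tested did not. The count for siRNA #1 was thus near the share of genes that differed at large. SNAI2 rose with each siRNA, as 5.16% of all genes did, while CDH1 and CTNNB1 fell with each, as 2.84% did. The other genes moved with some siRNAs and not with others, and EPCAM and FN1 passed this test with none. Fitted on their own groups alone, that is without the libraries of the other siRNAs, the counts were 5, 8 and 6.

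**Figure D2:**
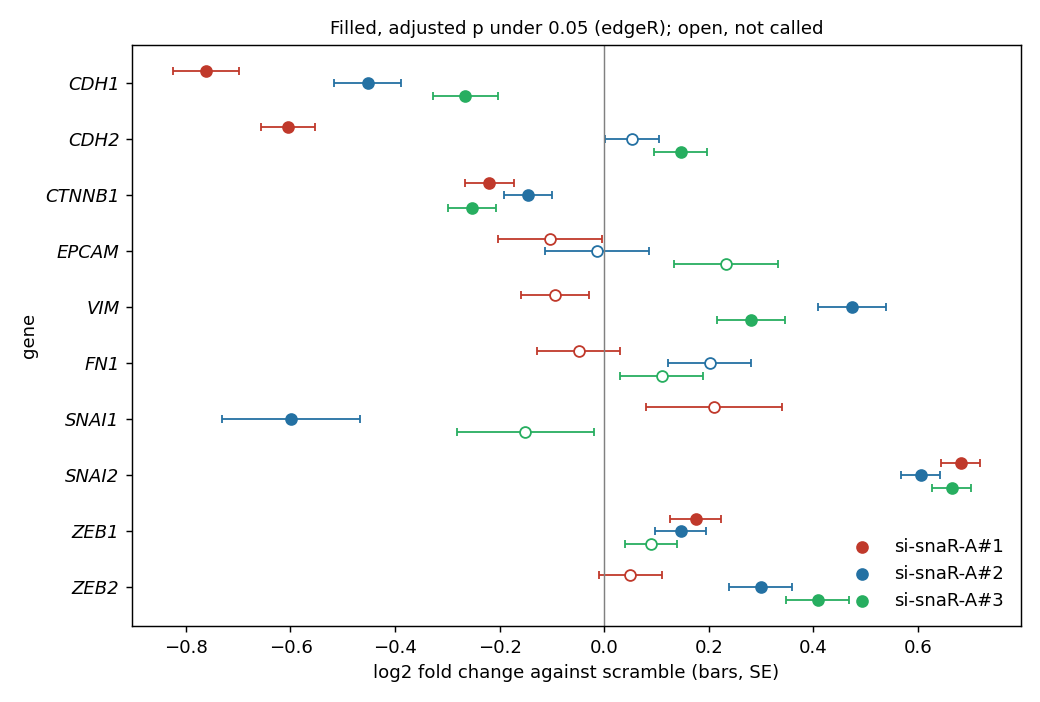
Log2 fold change against scramble (horizontal axis) of each gene with each siRNA, with bars of 1 SE, filled where the adjusted p was under 0.05. SNAI2 lay between 0.61 and 0.68 with all 3 siRNAs, while CDH2 ran from -0.60 to 0.15.

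E-cadherin mRNA fell with every siRNA. CDH1 (ENSG00000039068, on chromosome 16 of GRCh38 from 68737292 to 68835537, plus strand) had 10.3, 10.5 and 10.9 CPM in the scramble libraries and 6.38, 6.51 and 5.80 CPM with siRNA #1. It had 7.90, 7.73 and 7.53 CPM with siRNA #2 and 8.70, 8.91 and 8.77 CPM with siRNA #3. All 9 siRNA libraries lay below all 3 scramble libraries, and the 4 groups did not overlap each other. The log2 fold changes were -0.76 (SE 0.06, adjusted p = 8.22e-07), -0.45 (SE 0.06, adjusted p = 1.92e-04) and -0.27 (SE 0.06, adjusted p = 0.00668), which are changes of -41.0%, -26.9% and -16.8%. An unnamed gene on the other strand (ENSG00000260798) overlaps exons of CDH1, and the use of strand in the counting is not stated, so its reads may enter these values.

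N-cadherin did not follow the same course in the 3 siRNAs. CDH2 (ENSG00000170558, chromosome 18 from 27932879 to 28177946, minus strand) had 137, 146 and 146 CPM in scramble and 95.9, 100.1 and 85.8 CPM with siRNA #1. It had 147, 147 and 149.9 CPM with siRNA #2 and 155, 162 and 157 CPM with siRNA #3. The siRNA #1 libraries lay below all others, while those of the other siRNAs lay just above the scramble libraries. CDH2 fell by 0.60 on the log2 scale with siRNA #1 (SE 0.05, adjusted p = 9.62e-07). With siRNA #2 the change was 0.05 (SE 0.05, adjusted p = 0.503). It rose with siRNA #3 by 0.15 (SE 0.05, adjusted p = 0.0481), a call that was lost without any 1 of the scramble, siRNA #2 or siRNA #3 libraries or without siRNA #1 replicate 1, with adjusted p between 0.0572 and 0.174. An unnamed gene on the other strand (ENSG00000227279) overlaps its exons.

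Beta-catenin mRNA fell with every siRNA, with changes of -14.1%, -9.59% and -16.1% in order. CTNNB1 (ENSG00000168036, chromosome 3 from 41194741 to 41260096, plus strand) had 400.0, 432 and 428 CPM in scramble and 381, 362 and 338 CPM with siRNA #1. The libraries of siRNA #2 had 382, 379 and 377 CPM and those of siRNA #3 352, 346 and 359 CPM. Each siRNA library lay below each scramble library, by a margin that was small beside the level. In order, the siRNAs gave log2 fold changes of -0.22 (SE 0.05, adjusted p = 0.00172), -0.15 (SE 0.05, adjusted p = 0.0355) and -0.25 (SE 0.05, adjusted p = 0.00123). The call for siRNA #2 was lost without any 1 of its own libraries, scramble replicate 2 or 3, siRNA #1 replicate 2 or siRNA #3 replicate 2, with adjusted p between 0.0549 and 0.182.

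EPCAM (ENSG00000119888, chromosome 2 from 47345158 to 47387601, plus strand), an epithelial adhesion molecule outside the cadherin family, was low. It had 1.75, 1.93 and 1.89 CPM in scramble, 1.71, 1.71 and 1.76 CPM with siRNA #1, 1.83, 1.84 and 1.84 CPM with siRNA #2 and 2.37, 2.14 and 2.02 CPM with siRNA #3. The siRNA #3 libraries lay above all others, but no comparison with scramble passed the test. Log2 fold changes against scramble were -0.10 (SE 0.10, adjusted p = 0.432), -0.01 (SE 0.10, adjusted p = 0.942) and 0.23 (SE 0.10, adjusted p = 0.0986).

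Vimentin mRNA rose with siRNA #2 and siRNA #3. VIM (ENSG00000026025, chromosome 10 from 17228241 to 17237593, plus strand) had 510, 540 and 578 CPM in scramble and 522, 541 and 462 CPM with siRNA #1. It had 743, 767 and 751 CPM with siRNA #2 and 614, 680 and 683 CPM with siRNA #3. The siRNA #1 libraries overlapped scramble, and those of the other siRNAs lay above it. Tested against scramble, the log2 changes were -0.09 (SE 0.06, adjusted p = 0.261), 0.47 (SE 0.06, adjusted p = 1.56e-04) and 0.28 (SE 0.06, adjusted p = 0.00546), that is 38.9% and 21.5% more than in scramble with the latter pair. VIM-AS1 and the unnamed gene ENSG00000234961 overlap exons of VIM on the other strand.

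Fibronectin mRNA, which codes for a glycoprotein of the extracellular matrix, passed the test with no siRNA. FN1 (ENSG00000115414, chromosome 2 from 215360440 to 215436073, minus strand) had 96.2, 86.6 and 87.9 CPM in scramble, 82.6, 91.7 and 87.5 CPM with siRNA #1, 106, 104 and 102 CPM with siRNA #2 and 110.3, 97.6 and 84.2 CPM with siRNA #3. The siRNA #2 libraries lay above scramble, while those of siRNA #3 spread across its whole range. The log2 fold changes were -0.05 (SE 0.08, adjusted p = 0.657), 0.20 (SE 0.08, adjusted p = 0.0818) and 0.11 (SE 0.08, adjusted p = 0.332). Without siRNA #3 replicate 3, its lowest library, the change with siRNA #3 was 0.20 (adjusted p = 0.0324) and that with siRNA #2 was 0.20 (adjusted p = 0.0205). Without siRNA #3 replicate 1 the latter was also 0.20 (adjusted p = 0.0284). FN1 with siRNA #2 also passed with no filter (0.21, adjusted p = 0.0398), with DESeq2 (0.22, adjusted p = 0.0190) and on its own groups alone (0.21, adjusted p = 0.00442).

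ZEB1 and ZEB2 code for related repressors with clusters of zinc fingers on both sides of a homeodomain, and the stretches before their start sites are shown because both genes were higher with siRNA #2 and because factors of this family bind the words CACCTG and CAGGTG. The 250 bases before the start of the reference transcript are printed 5′ to 3′ from RefSeq's promoter table (GRCh38.p14), for ZEB1 at chr10:31318966-31319215 on the plus strand and for ZEB2 at chr2:144520120-144520369 on the minus strand. Capitals mark every CANNTG word, the general E-box, which also takes in CACCTG and CAGGTG.
ZEB1: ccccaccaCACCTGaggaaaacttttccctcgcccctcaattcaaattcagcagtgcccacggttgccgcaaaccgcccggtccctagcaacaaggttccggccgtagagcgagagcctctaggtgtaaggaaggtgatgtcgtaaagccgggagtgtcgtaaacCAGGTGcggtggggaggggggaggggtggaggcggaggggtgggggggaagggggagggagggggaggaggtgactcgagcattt
ZEB2: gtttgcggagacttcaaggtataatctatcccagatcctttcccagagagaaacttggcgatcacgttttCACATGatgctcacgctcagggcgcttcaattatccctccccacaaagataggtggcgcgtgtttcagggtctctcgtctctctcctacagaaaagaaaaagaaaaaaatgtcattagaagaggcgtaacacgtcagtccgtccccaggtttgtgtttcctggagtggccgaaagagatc

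The search covered windows of 300 bases, from 250 before to 50 after the start, and since these words are their own complements or each other's, both strands were read. The ZEB1 window held 3 CANNTG words, all of them CACCTG or CAGGTG, at -242, -85 and 33 from the start, the last of which lies beyond the stretch printed. Among 35116 windows of RefSeq genes, 20.6% held at least 1 of that pair of words and 0.635% held at least 3. ZEB1 has 7 such windows in the table and the one at its reference start is shown. The ZEB2 window held 1 CANNTG word, CACATG at -180, and none of the pair. The windows of CDH2, CTNNB1, VIM and FN1 held 0 CANNTG words, as did 31.3% of all windows. CDH1, EPCAM, SNAI1 and SNAI2 had no window in the promoter table and were not searched. A word in a window is a description of its letters and not a bound site.

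The mRNA of ZEB1 was higher with siRNA #1 and siRNA #2 by small amounts. ZEB1 (ENSG00000148516, chromosome 10 from 31318495 to 31529814, plus strand) had 74.1, 74.8 and 75.0 CPM in scramble and 86.2, 88.9 and 77.7 CPM with siRNA #1. It had 81.9, 80.5 and 85.3 CPM with siRNA #2 and 81.4, 81.0 and 75.8 CPM with siRNA #3. All 9 siRNA libraries lay above the narrow range of scramble. In order, the siRNAs gave log2 fold changes of 0.17 (SE 0.05, adjusted p = 0.0108), 0.15 (SE 0.05, adjusted p = 0.0451) and 0.09 (SE 0.05, adjusted p = 0.198). The call with siRNA #1 was lost without its replicate 2 (0.14, adjusted p = 0.0600). The call with siRNA #2 was lost without any 1 of its own or the scramble libraries, siRNA #1 replicate 1 or siRNA #3 replicate 1 or 2, with adjusted p between 0.0504 and 0.154. Exons of ZEB1-AS1 overlap ZEB1 on the other strand.

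ZEB2 (ENSG00000169554, chromosome 2 from 144364364 to 144521057, minus strand) rose with siRNA #2 and siRNA #3. It had 47.4, 45.3 and 44.3 CPM in scramble, 50.8, 45.8 and 45.3 CPM with siRNA #1, 55.1, 59.1 and 54.4 CPM with siRNA #2 and 65.7, 57.2 and 59.0 CPM with siRNA #3. The siRNA #1 libraries overlapped scramble and the others lay above it. Log2 fold changes against scramble were 0.05 (SE 0.06, adjusted p = 0.543), 0.30 (SE 0.06, adjusted p = 0.00279) and 0.41 (SE 0.06, adjusted p = 2.55e-04). ZEB2-AS1 and 2 unnamed genes overlap its exons on the other strand.

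SLUG mRNA rose with every siRNA. SNAI2 (ENSG00000019549), a repressor of CDH1 known from neural crest migration, had 49.3, 50.7 and 50.04 CPM in scramble. It had 83.0, 81.3 and 76.2 CPM with siRNA #1, 77.5, 74.1 and 76.6 CPM with siRNA #2 and 79.9, 78.5 and 79.4 CPM with siRNA #3. The lowest siRNA library was well above the highest scramble library, and the siRNA #1 libraries overlapped those of both other siRNAs. Tested against scramble, the log2 changes were 0.68 (SE 0.04, adjusted p = 2.29e-08), 0.61 (SE 0.04, adjusted p = 2.73e-07) and 0.66 (SE 0.04, adjusted p = 1.15e-07), or 1.60, 1.52 and 1.58 times scramble. The gene lies on chromosome 8 from 48917598 to 48921740 on the minus strand, and an unnamed gene on the other strand (ENSG00000288761) overlaps its exons.

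SNAIL mRNA did not rise with SLUG mRNA. SNAI1 (ENSG00000124216, on chromosome 20 from 49982980 to 49988886, plus strand) had 1.64, 1.68 and 1.76 CPM in scramble and 1.73, 1.93 and 2.22 CPM with siRNA #1. It had 0.965, 1.24 and 1.15 CPM with siRNA #2 and 1.41, 1.52 and 1.66 CPM with siRNA #3. The siRNA #2 libraries lay below all others, and the other siRNA groups overlapped scramble on opposite sides. SNAI1 fell by 0.60 on the log2 scale with siRNA #2 (SE 0.13, adjusted p = 0.00504). The changes with siRNA #1 and siRNA #3 were 0.21 (SE 0.13, adjusted p = 0.217) and -0.15 (SE 0.13, adjusted p = 0.429).

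Averaged over the siRNAs and set against scramble, 7 of the 10 genes differed, where 32.2% of all genes tested did. Higher were 4 of them, beside 15.6% of all genes, and lower 3, beside 16.6%. SNAI2, ZEB2, VIM and ZEB1 were higher by 0.65 (SE 0.03, adjusted p = 3.50e-08), 0.25 (SE 0.05, adjusted p = 0.00183), 0.22 (SE 0.05, adjusted p = 0.00661) and 0.14 (SE 0.04, adjusted p = 0.0202) on the log2 scale. CDH1, CTNNB1 and CDH2 were lower, at -0.49 (SE 0.05, adjusted p = 1.06e-05), -0.21 (SE 0.04, adjusted p = 9.84e-04) and -0.14 (SE 0.04, adjusted p = 0.0244). The lower mean of CDH2 came from siRNA #1, since its values with the other siRNAs were above zero. The calls for VIM without scramble replicate 1 (0.18, adjusted p = 0.0506), for ZEB1 without scramble replicate 1 or 2 (adjusted p = 0.0748 and 0.0664) and for CDH2 without scramble replicate 2 or 3 (adjusted p = 0.118 and 0.142) were lost. The 9 siRNA libraries did not overlap scramble for 4 of the genes, which were CDH1, CTNNB1, SNAI2 and ZEB1, where 12.1% of all genes tested did not.

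Ratios within a library need no scaling between libraries, and they were compared between groups as descriptions. The log2 ratio of CDH2 to CDH1 counts, not corrected for length, was 3.734, 3.799 and 3.736 in scramble, 3.91, 3.94 and 3.89 with siRNA #1, 4.22, 4.25 and 4.32 with siRNA #2 and 4.16, 4.18 and 4.16 with siRNA #3. Every siRNA library was above every scramble library, so N-cadherin mRNA was higher relative to E-cadherin mRNA in all of them. With siRNA #1 both cadherins fell and CDH1 fell by more, whereas with the other siRNAs CDH1 fell and CDH2 did not. The log2 ratio of VIM to EPCAM was 8.68 ± 0.0198 with siRNA #2 (SD, n = 3), above all other libraries, and 8.19 ± 0.0656 in scramble, which the libraries of siRNA #1 and siRNA #3 overlapped. The log2 ratio of ZEB1 to ZEB2 was 0.71 ± 0.0597 in scramble and 0.39 ± 0.1003 with siRNA #3, with no overlap between these groups. With siRNA #1 it went the other way, between 0.763 and 0.956 against 0.644 and 0.761 in scramble, again with no overlap, and with siRNA #2 it was 0.56 ± 0.102 and overlapped scramble.

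**Figure D3:**
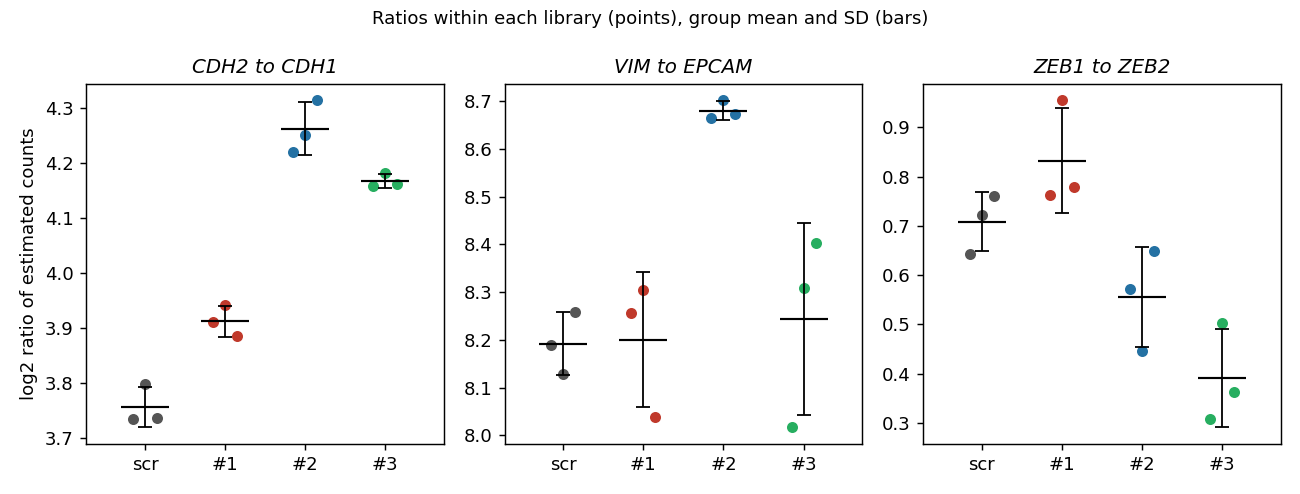
Log2 ratios of estimated counts within each library (vertical axes, which do not start at 0) for CDH2 to CDH1, VIM to EPCAM and ZEB1 to ZEB2. Points are libraries and bars the mean and SD of 3. The CDH2 to CDH1 ratio was lowest in scramble, at 3.76 on average, and highest with siRNA #2, at 4.26.

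The siRNAs were also compared with each other. Of the 10 genes, 6 differed between siRNA #1 and siRNA #2, where 46.7% of all genes tested did, and 6 between siRNA #1 and siRNA #3, where 48.6% did. Between siRNA #2 and siRNA #3, 1 differed, where 15.6% of all genes did. CDH2 differed most in size between siRNA #1 and siRNA #3, at -0.75 (SE 0.05, adjusted p = 1.20e-07). SNAI1 was higher with siRNA #1 than with siRNA #2 by 0.81 (SE 0.13, adjusted p = 2.53e-04), the largest difference of any of the 10 genes between siRNAs. The fall of CDH1 was larger with siRNA #1 than with siRNA #2, at -0.31 (SE 0.06, adjusted p = 0.00142), or siRNA #3, at -0.50 (SE 0.06, adjusted p = 3.05e-05), and did not differ at the threshold between the latter, at -0.19 (SE 0.06, adjusted p = 0.0658). SNAI2, ZEB1 and CTNNB1 passed the test in none of these pairs. For SNAI2 the differences were 0.08 (SE 0.04), 0.02 (SE 0.04) and -0.06 (SE 0.04), and without siRNA #1 replicate 3 the first was 0.09 (adjusted p = 0.0472). Without that library ZEB1 also differed between siRNA #1 and siRNA #3 (0.14, adjusted p = 0.0222), and CTNNB1 between siRNA #2 and siRNA #3 (0.12, adjusted p = 0.0472).

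The genes whose levels followed each of the 10 most closely over the 12 libraries were found by Pearson's r of log2 CPM among 14529 genes of at least 1 CPM on average. The libraries share their groups and their scramble controls, and r is a description. CDH2 was followed most closely by YWHAZ (r = 0.997) and BEX3 (r = 0.997), whose log2 fold changes with siRNA #1 were -0.58 and -0.70. CDH1 was followed by BEX2 (r = 0.987) and BMP2 (r = 0.982), a bone morphogenetic protein. SNAI2 was followed by PAFAH1B2 (r = 0.995) and by TLE5 (r = 0.990), a member of the Groucho corepressor family. VIM was followed by TNIP1 (r = 0.988) and EXOC4 (r = 0.987), FN1 by IGF1R (r = 0.960) and FBN2 (r = 0.920), and ZEB2 by SPTY2D1 (r = 0.960) and ZNF440 (r = 0.957). The closest genes to SNAI1 were RAB26 (r = 0.969) and CCDC120 (r = 0.945), and to CTNNB1 they were TMEM183A (r = 0.957) and PRPSAP2 (r = 0.953). For ZEB1 they were IREB2 (r = 0.918) and AGPS (r = 0.916), and for EPCAM SLC38A1 (r = 0.936) and ZFYVE9 (r = 0.936).

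In the wider cadherin family, 18 of 23 listed genes were tested. In the mean over siRNAs 4 were higher and 2 lower, the latter CDH1 and CDH2, where 15.6% of all genes tested were higher and 16.6% lower, and the list's median log2 fold change was 0.06 beside -0.04 over all genes tested. CDH7 and CDH12, cadherins of neural tissue, rose with each siRNA. CDH7 was at 6.14 ± 0.144 CPM in scramble and at 9.04 ± 1.16, 7.75 ± 0.494 and 7.77 ± 0.609 CPM with the siRNAs in order (SD, n = 3). CDH12 was at 16.1 ± 0.562 CPM in scramble and at 19.4 ± 1.40, 21.2 ± 0.737 and 20.1 ± 0.408 CPM. Of the catenins and other adherens junction genes, 16 of 17 were tested. In the mean 4 of them were higher and 3 lower, beside 15.6% and 16.6% of all genes, with a median of -0.02. ARVCF, a catenin of the p120 family, was lower by 0.49 (SE 0.08, adjusted p = 4.33e-04) in the mean, and CBLL1, a ubiquitin ligase for E-cadherin, by 0.32 (SE 0.06, adjusted p = 0.00158). NECTIN3, an adhesion molecule of the immunoglobulin family, was higher by 0.26 (SE 0.04, adjusted p = 6.24e-04).

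The epithelial marker list, which holds CDH1 and EPCAM, had 29 of 37 genes tested. In the mean 4 were higher, 8 lower and 17 not called, beside 15.6% higher and 16.6% lower of all genes. The median was -0.16, beside -0.04 over all genes. With siRNA #1, 2 were higher and 7 lower, where 21.9% and 23.3% of all genes were. The counts were 3 and 8 with siRNA #2 (13.7% and 12.1%) and 5 and 4 with siRNA #3 (16.5% and 13.0%). The summed level of the list was between 941 and 971 CPM in scramble and between 800 and 865 CPM with siRNA #1. That sum was higher with siRNA #2, between 1006 and 1020 CPM, and with siRNA #3, between 993 and 1086 CPM. DSG2 was the largest part of the sum, so the sum does not show how most genes of the list moved. It was at 441 ± 13.9 CPM in scramble and at 333 ± 20.0, 484 ± 4.47 and 476 ± 15.9 CPM with the siRNAs in order. DSG2 was called lower with siRNA #1 and was not called with siRNA #2 (adjusted p = 0.0531) or siRNA #3 (adjusted p = 0.102). MAL2, a protein of transcytosis in polarised cells, fell from 1.72 ± 0.238 CPM in scramble to 0.836 ± 0.0455 CPM with siRNA #1 and 1.21 ± 0.0780 CPM with siRNA #3, and was at 1.39 ± 0.0632 CPM with siRNA #2 (adjusted p = 0.0934). Members that rose went against the name of the list. ESRP2, a splicing regulator of epithelial cells, rose from 1.02 ± 0.169 CPM to 1.73 ± 0.0979 CPM with siRNA #1 and 1.501 ± 0.0725 CPM with siRNA #2. CDS1, an enzyme of phosphoinositide synthesis, rose from 44.1 ± 0.818 CPM to 66.5 ± 0.705 CPM with siRNA #2 and 76.0 ± 0.819 CPM with siRNA #3.

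The mesenchymal marker list, which holds CDH2, VIM and FN1, had 33 of 36 genes tested. With siRNA #2, 15 were higher and 3 lower with a median of 0.32, where 13.7% and 12.1% of all genes were higher and lower. With siRNA #3, 14 were higher and 5 lower with a median of 0.25, where 16.5% and 13.0% of all genes were, and the median of all genes was -0.03 in both comparisons. With siRNA #1, 10 were higher and 9 lower, beside 21.9% and 23.3% of all genes, and the median of -0.03 was close to the -0.02 of all genes tested. In the mean, 15 were higher and 5 lower, beside 15.6% and 16.6% of all genes, with a median of 0.17. The summed level of the mesenchymal list was between 1668 and 1777 CPM in scramble and lower with siRNA #1, between 1461 and 1630 CPM. With siRNA #2 it was between 2217 and 2305 CPM and with siRNA #3 between 2030 and 2107 CPM. VIM was the largest part of this sum. Those that rose with every siRNA included CD44, a hyaluronan receptor, and the collagen genes COL3A1 and COL6A1. CD44 was at 5.07 ± 0.441 CPM in scramble and at 9.39 ± 0.568, 6.57 ± 0.758 and 7.11 ± 0.321 CPM with the siRNAs in order, and COL6A1 was at 85.3 ± 1.25 CPM and at 114 ± 2.26, 128 ± 6.37 and 129.7 ± 1.74 CPM. COL1A1, in contrast, fell with every siRNA, from 25.4 ± 1.35 CPM to 13.6 ± 0.743 CPM with siRNA #3. LUM, a fibroblast proteoglycan, was at 3.94 ± 0.204 CPM in scramble and rose by 0.80 (SE 0.21, adjusted p = 0.0136) with siRNA #2 and 0.85 (SE 0.21, adjusted p = 0.00893) with siRNA #3. The fibroblast marker list had 7 of 9 genes tested, of which 2 were higher and 1 lower in the mean, beside 15.6% and 16.6% of all genes. Its median in the mean was -0.46, against the direction of LUM, beside -0.04 over all genes. The summed level of the fibroblast list was between 38.1 and 40.8 CPM in scramble and between 34.6 and 41.8 CPM with the siRNAs. The part of other cell types in these values was not tested.

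**Figure D4:**
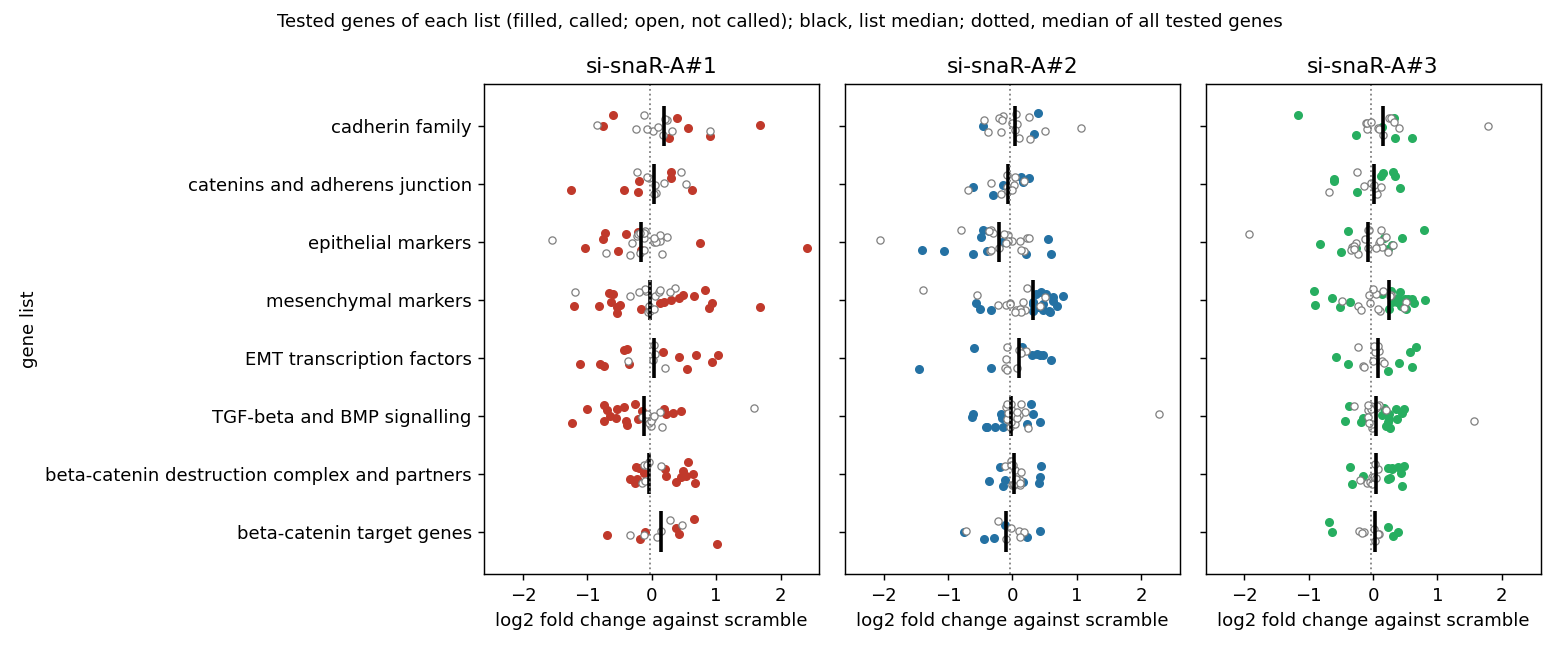
Log2 fold change against scramble (horizontal axes) of the tested genes of 8 lists (vertical axis), by siRNA. Filled points passed the test, black bars are list medians and the dotted line is the median of all tested genes. The mesenchymal list had medians of 0.32 and 0.25 with siRNA #2 and siRNA #3 and of -0.03 with siRNA #1.

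Of the EMT transcription factors, 17 of 20 listed were tested, 6 were higher and 5 lower in the mean, where 15.6% and 16.6% of all genes were, and the median was 0.08 beside -0.04 over all genes. Beside SNAI2, ZEB1 and ZEB2, the low GSC, a homeodomain factor of the gastrula organiser, rose from 1.65 ± 0.00928 CPM to 3.17 ± 0.207, 2.23 ± 0.110 and 2.52 ± 0.241 CPM with the siRNAs in order. TCF3, a helix-loop-helix factor that binds E-boxes, rose from 49.1 ± 1.09 CPM to 65.8 ± 0.825, 68.3 ± 2.22 and 72.9 ± 0.555 CPM. SOX4, an abundant factor of progenitor cells, moved the other way. It fell from 486 ± 10.6 CPM in scramble to 224 ± 8.69 CPM with siRNA #1 and 369 ± 22.7 CPM with siRNA #3, and was at 457 ± 19.9 CPM with siRNA #2 (adjusted p = 0.229).

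The partners of beta-catenin were examined because CTNNB1 fell with each siRNA. All 21 genes of the destruction complex and the transcriptional partners were tested, with 9 higher, 4 lower and a median of 0.09 in the mean, beside 15.6% higher, 16.6% lower and a median of -0.04 over all genes, and 8 passed the test without scramble replicate 2 in place of 13. AXIN1, the scaffold of the destruction complex, rose from 32.8 ± 1.13 CPM to 51.1 ± 1.95, 43.6 ± 3.09 and 45.9 ± 2.27 CPM with the siRNAs in order. TLE1, a Groucho corepressor, rose from 60.4 ± 3.30 CPM to 89.0 ± 7.79, 81.9 ± 0.522 and 81.6 ± 3.18 CPM. PYGO2, a coactivator, was higher by 0.29 (SE 0.04, adjusted p = 1.71e-04) in the mean. Of the 13 target genes of beta-catenin, 4 were higher and 1 lower in the mean, where 15.6% and 16.6% of all genes were. Their median was -0.02, beside -0.04 over all genes. CCND1, the gene of cyclin D1, was at 134 ± 2.14 CPM in scramble, 125 ± 4.01 CPM with siRNA #1, 179.96 ± 4.48 CPM with siRNA #2 and 157 ± 3.41 CPM with siRNA #3, and thus fell with the first (adjusted p = 0.0446) and rose with the others. TNFRSF19 fell from 14.7 ± 0.870 CPM to 9.11 ± 0.850 and 10.9 ± 0.651 CPM with siRNA #1 and siRNA #2, and was at 13.05 ± 0.148 CPM with siRNA #3 (adjusted p = 0.0964).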

How the data were processed

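Reads from 12 poly(A)+ libraries of HEK293T cells were trimmed with Trim Galore and assigned with Salmon, per the submitters' processing notes. The authors deposited estimated counts for each Ensembl gene. Of the positive counts 0% were whole numbers, and whether they had been scaled by length or abundance was not established. The levels per kb take them as not scaled. The transcript release and the use of strand are not given in the sources used here, and 0 columns were left out. The estimated counts were rounded, so counting error is approximate. Totals of 120.4 to 180.1 M counts per library set the precision, and replicates differed by more than counting error (chi-square over its degrees of freedom, 11.9 to 56.9).

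Groups came from the labels. Genes were kept with edgeR's filterByExpr, scaled with TMM and tested in 1 quasi-likelihood fit of all 12 libraries (edgeR 4.0.16, R 4.3.3), with Benjamini-Hochberg adjustment over 21999 genes and calls under 0.05. An SE is the size of the log2 fold change over the square root of F. Symbols, positions and lengths came from GENCODE 44 (GRCh38), which held 58160 of 63541 IDs. The scripts were tested on simulated data. The study's methods call the replicates biological and processed on the same day, while the labels name no cultures or batches, so p-values measure the spread between these samples.

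The genes and the 13 lists were chosen with earlier results of these data known. Besides the 10 genes, the text names up to 3 genes a list (at least 1 CPM, called in the mean of the siRNAs and in the same direction with at least 2 of them, largest change first) and the 2 genes most alike each of the 10. Genes named to check the cell type, and those at 0, were chosen after their values were seen. Alternatives were RLE and upper quartile scaling, no filter and a mean of at least 1 CPM, DESeq2 1.42.0, limma-voom (limma 3.58.1), own groups alone, a replicate block and each library left out.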

Additional observations from a re-analysis of the deposited data

Results flagged for a closer look

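The response to the siRNAs differed between them in 13 of the 30 pairwise tests of the 10 genes, by edgeR's quasi-likelihood test of the difference itself (Benjamini-Hochberg over all genes tested). These were 6, 6 and 1 of the 10 genes, where 46.7%, 48.6% and 15.6% of all genes differed between siRNA #1 and siRNA #2, siRNA #1 and siRNA #3, and siRNA #2 and siRNA #3. Between siRNA #1 and siRNA #2 the log2 differences were -0.31 for CDH1, -0.66 for CDH2, -0.57 for VIM, -0.25 for FN1, -0.25 for ZEB2 and 0.81 for SNAI1, with adjusted p of 0.00142, 4.49e-07, 1.14e-05, 0.0197, 0.00435 and 2.53e-04 in that order. Between siRNA #1 and siRNA #3 they were -0.50 for CDH1, -0.75 for CDH2, -0.37 for VIM, -0.36 for ZEB2, -0.34 for EPCAM and 0.36 for SNAI1, with adjusted p of 3.05e-05, 1.20e-07, 3.45e-04, 3.01e-04, 0.0135 and 0.0374. The difference of SNAI1 between siRNA #2 and siRNA #3 was -0.45 (adjusted p = 0.0384). CDH1, CDH2, VIM and ZEB2 were thus lower with siRNA #1 than with each other siRNA, and SNAI1 was higher.

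The calls for FN1, EPCAM and 2 of the 3 for SNAI1 were lost without single libraries. The call for FN1 was lost without siRNA #1 replicate 1 or siRNA #2 replicate 1 or 2 (adjusted p = 0.0747, 0.0562 and 0.0504), and that for EPCAM without siRNA #3 replicate 1 (adjusted p = 0.0566). The call for SNAI1 between siRNA #1 and siRNA #3 was lost without siRNA #1 replicate 2 or 3, siRNA #3 replicate 1 or 2 or scramble replicate 2, with adjusted p between 0.0513 and 0.152. That between siRNA #2 and siRNA #3 was lost without siRNA #1 replicate 2, siRNA #2 replicate 1 or 3, siRNA #3 replicate 2 or 3 or scramble replicate 2 or 3, with adjusted p between 0.0546 and 0.147. Without siRNA #3 replicate 3, FN1 also differed between siRNA #1 and siRNA #3 (-0.25, adjusted p = 0.00597), and without siRNA #1 replicate 2 or 3 or scramble replicate 3, VIM differed between siRNA #2 and siRNA #3 (adjusted p = 0.0464, 0.0187 and 0.0433).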

How the results depend on the processing

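Of the 70 tests of the 10 genes, 38 passed the threshold, all 38 had 1 sign under every alternative, and 27 passed under every alternative. The other 32 did not pass, and 24 of them passed under none. The rises of SNAI2 and the falls of CDH1 with each siRNA were among the 27. The calls most often lost were those of CDH2 with siRNA #3 (13 of 20 alternatives), ZEB1 with siRNA #2 (12) and CTNNB1 with siRNA #2 (11). The cause was not tested. Low levels of SNAI1 and EPCAM, with as few as 144 and 212 counts in a library, limit their precision.

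Replicate numbers did not pair the samples, since the same-number correlations of 18 comparisons lay between -0.24 and 0.17, 5 of them over 0.1, and samples correlated best with their own number in 6 of 18. With a replicate block the genes called were 9653, 5336, 6162 and 6801 with siRNA #1, siRNA #2, siRNA #3 and their mean, in place of 9941, 5673, 6474 and 7087, and 5, 5, 5 and 7 of the 10 genes passed in place of 5, 7, 6 and 7.

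Values near 0 changed sign without passing the test. EPCAM with siRNA #2, at -0.01, was 0.0079 under RLE scaling and 0.011 with DESeq2, and between -0.054 (without scramble replicate 1) and 0.020 (without scramble replicate 3) with 1 library left out, with positive values also without scramble replicate 2 (0.016) or siRNA #1 replicate 2 or 3 (0.0044 and 0.0040). With 1 library left out, EPCAM in the mean lay between -0.0030 and 0.068, ZEB2 with siRNA #1 between -0.0045 and 0.080, and ZEB1 between siRNA #1 and siRNA #2 between -0.027 and 0.066. Between siRNA #1 and siRNA #3, CTNNB1 lay between -0.010 and 0.075 and SNAI2 between -0.010 and 0.050, and FN1 between siRNA #2 and siRNA #3 between -0.0019 and 0.19. The negative values came without scramble replicate 1 (EPCAM), siRNA #1 replicate 1 (ZEB2, CTNNB1, SNAI2) or 2 (ZEB1) and siRNA #3 replicate 3 (FN1).

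Between siRNA #2 and siRNA #3, where 1 of the 10 genes passed, 2 did under upper quartile scaling and on own groups alone, 4 at a mean of at least 1 CPM, 3 with DESeq2 and 0 with no filter, and between 0 and 3 with 1 library left out. VIM passed there under upper quartile scaling, on own groups alone, at 1 CPM and with DESeq2, with adjusted p between 0.0143 and 0.0307. CDH1 passed at 1 CPM and with DESeq2 (adjusted p = 0.0428 and 0.0469), and CTNNB1 at 1 CPM and on own groups alone (adjusted p = 0.0235 and 0.0244). All genes called there numbered between 2215 (without siRNA #2 replicate 2) and 3830 with 1 library left out, against 3421. Of the small lists in the mean, the kidney list went from 1 call to 0 with no filter, at 1 CPM, with the replicate block and with DESeq2, and between 0 and 2 with 1 library left out. The endothelial list went from 1 to 3 with no filter and to 2 with the block and DESeq2, and between 0 and 2 with 1 library left out. The leukocyte list went from 2 to 0 at 1 CPM and to 1 with the block, DESeq2 and limma-voom, and between 0 and 2 with 1 library left out. The beta-catenin partner list had between 8 and 14 calls with 1 library left out.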

Other observations

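Genes of TGF-beta and BMP signalling, pathways known to induce and to restrain EMT, fell more often than they rose in the mean over siRNAs. Of 30 tested genes of 32 listed, 5 were higher and 13 lower, where 15.6% and 16.6% of all genes tested were, and the median log2 fold change was -0.06 beside -0.04 for all genes tested. The split differed by siRNA. With siRNA #1, 4 were higher and 14 lower, where 21.9% and 23.3% of all genes were. The counts were 4 and 8 with siRNA #2 (13.7% and 12.1% of all genes) and 11 and 4 with siRNA #3 (16.5% and 13.0%). ID2, an inhibitor of helix-loop-helix factors, fell from 315 ± 13.9 CPM in scramble to 134 ± 1.40, 238 ± 1.80 and 244 ± 12.6 CPM with the siRNAs in order (SD, n = 3). SMAD6, an inhibitory SMAD, fell from 40.4 ± 0.848 CPM to 24.2 ± 1.04, 26.03 ± 0.993 and 29.9 ± 1.13 CPM. LTBP1, which binds latent TGF-beta in the matrix, rose from 49.1 ± 0.936 CPM to 62.1 ± 6.34, 66.1 ± 6.02 and 63.3 ± 4.64 CPM. MYC, a target of beta-catenin and of many other pathways, rose from 165 ± 5.65 CPM to 333 ± 19.4, 194 ± 4.59 and 205 ± 10.8 CPM.

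Neuronal markers, some of which HEK293T cells are known to express, had 13 of 15 genes tested, with 2 higher and 4 lower in the mean, where 15.6% and 16.6% of all genes were, and a median of -0.21 beside -0.04 over all genes. Their summed level was between 449 and 475 CPM in scramble and between 426 and 470 CPM with siRNA #1. It was higher with siRNA #2, between 691 and 712 CPM, and with siRNA #3, between 533 and 546 CPM. NEFM and NEFL made up most of this sum in every group, so it does not show how most genes of the list moved. The list medians were -0.57, -0.24 and -0.37 with the siRNAs in order, beside -0.02, -0.03 and -0.03 over all genes. NEFL was at 157 ± 8.86 CPM in scramble and at 152 ± 13.1, 225 ± 6.88 and 155 ± 6.74 CPM with the siRNAs. SYP, a synaptic vesicle protein, fell from 19.0 ± 0.312 CPM to 6.29 ± 0.235, 8.42 ± 0.249 and 6.63 ± 0.244 CPM, and INA, a neuronal intermediate filament, fell from 12.1 ± 0.250 CPM to 3.69 ± 0.205, 8.59 ± 0.371 and 8.67 ± 0.389 CPM. TUBB3, a neuronal tubulin, was lower by 0.65 (SE 0.09, adjusted p = 8.36e-05) on the log2 scale in the mean. NEFM and NEFL, neurofilament genes, were the pair called higher, NEFM by 0.45 (SE 0.04, adjusted p = 1.89e-06) and NEFL by 0.15 (SE 0.05, adjusted p = 0.0375), the latter called with siRNA #2 alone among the siRNAs, and were named after their values were seen. NEFM was at 258 ± 12.2 CPM in scramble and at 280 ± 8.26, 448 ± 16.9 and 354 ± 7.01 CPM with the siRNAs in order.

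Markers of cells that a HEK293T culture should lack were low. The summed level of 7 endothelial markers was between 2.21 and 2.61 CPM in scramble and between 1.14 and 2.63 CPM with the siRNAs, and that of 8 leukocyte markers between 1.66 and 2.08 CPM and between 1.38 and 2.75 CPM. In the mean, 0 of 4 tested endothelial markers were higher and 1 lower, 1 of 5 leukocyte markers was higher and 1 lower, and 0 of 9 kidney markers were higher and 1 lower, beside 15.6% higher and 16.6% lower of all genes. The kidney marker sum was between 70.4 and 73.8 CPM in scramble and between 81.8 and 94.0 CPM with siRNA #1, between 62.5 and 68.7 CPM with siRNA #2 and between 70.5 and 79.4 CPM with siRNA #3.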
